A study of Mus musculus with 12 samples.

Results

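Nqo1, Hmox1, Ephx1, Gclc, Gclm, Gsr, Txnrd1, Srxn1, Mt1 and Mt2 were examined in livers of Apoe knockout mice given Rspo2 or Gfp by an adeno-associated viral (AAV) vector, a virus used to deliver genes. The first 8 are known targets of the transcription factor NRF2 and the last 2 are metallothioneins. They were taken by symbol from the 54532 genes of the deposited table, and each of the 10 had 1 row. The Rspo2-AAV group held 6 liver libraries, numbered 1, 2, 4, 5, 6 and 7, and the Gfp-AAV control group held 6, numbered 1 to 6. The Apoe knockout was shared by all 12 libraries, and none with intact Apoe is compared here. Reads assigned to Apoe still gave 43.1 to 101.0 FPKM in Rspo2-AAV and 38.8 to 149.3 FPKM in Gfp-AAV livers, and the deleted part of the gene is not given in the sources used here. Strain, age, sex, diet, vector dose, promoter and time after injection were not given in the sources used here. Whether each library was a different animal is not stated in the labels, and the p-values therefore reflect the spread of these libraries, which may be technical.

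R-spondin 2, the secreted product of Rspo2, raises Wnt signalling by protecting Wnt receptors from removal at the cell surface. NRF2, encoded by Nfe2l2, is kept low by KEAP1, which presents it for degradation, and accumulates when oxidants or electrophiles modify KEAP1. It then binds antioxidant response elements in genes that make and recycle glutathione and thioredoxin or that process quinones, heme and epoxides, a major defence of hepatocytes against reactive compounds. Metallothioneins are small cysteine-rich proteins that bind zinc and copper, and in liver they are induced by metals through MTF1, by glucocorticoids and during inflammation.

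Expression was measured by bulk RNA sequencing and deposited as FPKM, that is, fragments corrected for the length of the gene and the size of the library, so levels of different genes can be compared per length. Each library held between 14295644 and 22195576 reads, recovered from its FPKM. The vector gene Rspo2 had 3917 to 44527 reads in the Rspo2-AAV libraries and 0 reads in all 6 Gfp-AAV libraries (two-sided exact permutation test, p = 0.00216, the smallest that 924 splits allow). Hepatocyte markers were abundant in every library, with summed levels of 20398 to 44312.7 FPKM in Rspo2-AAV and 25281.3 to 49573.2 FPKM in Gfp-AAV livers over 6 markers, none of them at 0 in every library. Rspo2-AAV 1, Rspo2-AAV 2 and Gfp-AAV 3 stood apart from the rest by Xist, the RNA that coats the inactive X chromosome, at 28.0, 5.57 and 42.0 FPKM, against at most 0.0186 FPKM in the other 9. Rspo2-AAV 4 and 5 carried pancreatic acinar transcripts, with 11 markers summing to 44485 and 3739 FPKM. Rspo2-AAV 6 and 7 held less, at 438 and 41.5 FPKM, still above the 4.34 to 15.99 FPKM of Gfp-AAV livers, and Rspo2-AAV 1 and 2 were at 3.99 and 8.35 FPKM. Libraries numbered 4 to 7 differed from those numbered 1 to 3 in other genes such as Scd1. That boundary between numbers was drawn from these data. Rspo2 itself was at 265.1 to 572.7 FPKM in Rspo2-AAV 4 to 7, and at 122.2 and 49.9 FPKM in Rspo2-AAV 1 and 2.

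The 10 genes did not move as a group. Nqo1 was higher and Ephx1 lower in Rspo2-AAV than in Gfp-AAV livers, and the other 8 did not pass the test (limma on log2(FPKM + 0.5), Benjamini-Hochberg adjusted p under 0.05 over 13447 genes). The 2 called genes of 10 stand beside 5.2% of all tested genes called, 2.55% higher and 2.65% lower. The median log2 change was -0.11 over the 10 genes and 0.00 over all tested genes. In none of the 10 were the ranges of the 2 groups separate, against 3.24% of all tested genes. Every fold change below is on the log2(FPKM + 0.5) scale, which understates the change of genes with low values.

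**Figure D1:**
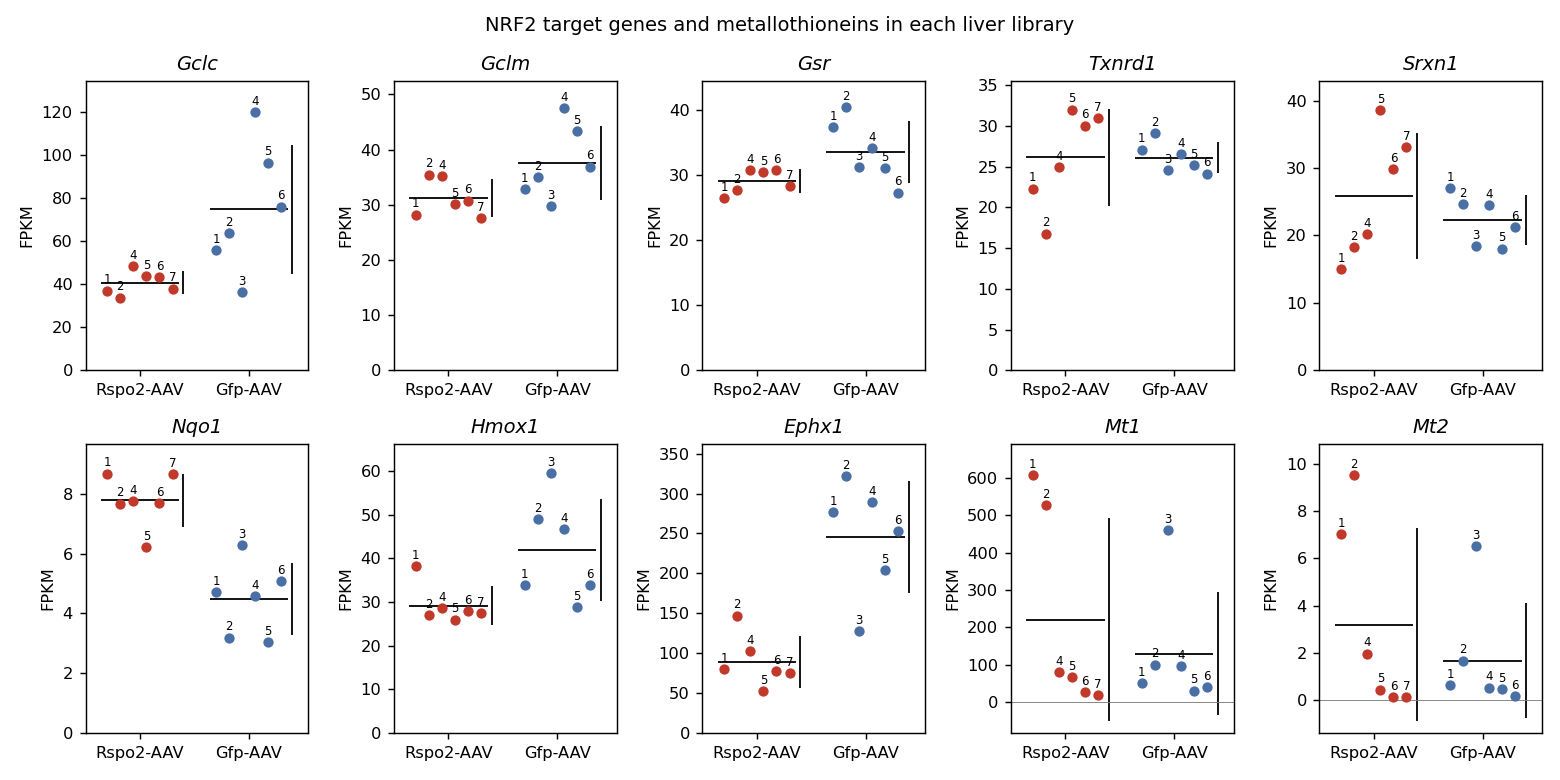
Level of each of the 10 genes in every library, in FPKM on linear axes, for Rspo2-AAV (left) and Gfp-AAV (right) livers. Each point is 1 library with its number beside it, the line is the group mean and the bar spans ± 1 SD (n = 6 each). Nqo1 sits higher and Ephx1 lower in Rspo2-AAV livers, while Mt1 and Mt2 are high in Rspo2-AAV 1, Rspo2-AAV 2 and Gfp-AAV 3.

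By mean level over all 12 libraries the genes ran in the order Mt1 (175.8 FPKM), Ephx1 (167.2), Gclc (57.6), Hmox1 (35.6), Gclm (34.4), Gsr (31.3), Txnrd1 (26.1), Srxn1 (24.0), Nqo1 (6.13) and Mt2 (2.43). The first 2 change places without the Xist libraries, where Ephx1 was above Mt1 in 8 of 9, and Mt1 was above Ephx1 in 4 of all 12. In group means, Mt1 was at 221.2 and Ephx1 at 88.9 FPKM in Rspo2-AAV livers, and Mt1 at 130.4 and Ephx1 at 245.5 FPKM in Gfp-AAV livers. The ranges of neighbours in this order overlapped, except between Srxn1, whose lowest library was at 14.9 FPKM, and Nqo1, whose highest was at 8.67 FPKM. Nqo1 was thus below the other 7 NRF2 targets among the 10 genes. The place of Mt2 is uncertain, because most of its exonic bases are shared with an antisense gene, as given below.

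Nqo1 (ENSMUSG00000003849, chr8:107388225-107403206, minus strand, GRCm38) encodes NAD(P)H quinone dehydrogenase 1, which reduces quinones in a way that avoids reactive intermediates. The lowest, median and highest Nqo1 levels were 6.22, 7.72 and 8.67 FPKM in Rspo2-AAV livers, against 3.04, 4.64 and 6.28 FPKM in Gfp-AAV livers. Of the 6 Rspo2-AAV libraries, 5 were above the highest Gfp-AAV library, and all 6 were above the Gfp-AAV median. The mean was 7.78 ± 0.896 FPKM in Rspo2-AAV and 4.48 ± 1.21 FPKM in Gfp-AAV livers (SD, n = 6 each), a 1.70-fold higher level in Rspo2-AAV livers (log2 change 0.76 ± 0.16 SE, limma adjusted p = 0.0149). Nqo1 stayed past the threshold in all 12 fits that left out 1 library (log2 change 0.67 to 0.86, limma adjusted p up to 0.0380). With FPKM rescaled to TPM, the log2 change was 0.81 and the limma adjusted p 0.0641, which ends the call. The counts behind these levels were small, at 67 to 340 reads per library.

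Ephx1 (ENSMUSG00000038776, chr1:180976210-181020904, minus strand) encodes microsomal epoxide hydrolase, which opens reactive epoxides with water and also takes part in bile acid handling. Its lowest, median and highest levels were 52.2, 78.7 and 146.9 FPKM in Rspo2-AAV livers, against 127.6, 264.9 and 322.1 FPKM in Gfp-AAV livers. In 5 of 6 Rspo2-AAV libraries Ephx1 was below the lowest Gfp-AAV library. The overlap came from Rspo2-AAV 2 (146.9 FPKM) and Gfp-AAV 3 (127.6 FPKM), both of which carried Xist. The mean was 88.9 ± 32.6 FPKM in Rspo2-AAV and 245.5 ± 69.9 FPKM in Gfp-AAV livers (SD, n = 6 each), 2.78-fold lower in Rspo2-AAV livers (log2 change -1.47 ± 0.26 SE, 95% interval -2.04 to -0.91, limma adjusted p = 0.00749). Without the 3 Xist libraries, Ephx1 was at 52.2 to 102.2 FPKM in Rspo2-AAV livers and at 204.2 to 322.1 FPKM in Gfp-AAV livers (log2 change -1.83 ± 0.20 SE, limma adjusted p = 0.000467). Without those libraries 12.8% of all tested genes were called. Ephx1 passed in all 12 fits without 1 library, with log2 changes of -1.65 to -1.34.

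The promoter windows of Nqo1 and Ephx1 are printed because these are the 2 genes that passed the test in opposite directions. Each covers the 250 bases before the start given by RefSeq on GRCm38.p6, read 5′ to 3′ along the gene, with capitals kept for matches to a motif.

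Nqo1, chr8:107403206-107403455, minus strand: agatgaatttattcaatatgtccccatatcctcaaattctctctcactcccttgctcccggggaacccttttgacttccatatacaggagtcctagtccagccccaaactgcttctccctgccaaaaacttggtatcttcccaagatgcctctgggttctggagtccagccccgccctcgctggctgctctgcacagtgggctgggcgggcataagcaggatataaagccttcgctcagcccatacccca

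Ephx1, chr1:181017570-181017819, minus strand: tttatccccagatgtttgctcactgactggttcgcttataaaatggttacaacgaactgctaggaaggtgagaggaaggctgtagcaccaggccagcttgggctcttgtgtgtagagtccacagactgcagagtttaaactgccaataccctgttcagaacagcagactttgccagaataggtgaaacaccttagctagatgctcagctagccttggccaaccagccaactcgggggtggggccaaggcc

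The motif searched on both strands was TGACNNNGC, a short form of the antioxidant response element, which 10.164% of 32841 promoter windows of this length held. Neither window held it, nor did either hold TGCACNC or TGCGCNC, short forms of the metal response element found in 21.409% of windows. These letters may lie outside the windows, and a match or its absence was taken only as a description. The Ephx1 window lies inside the deposited Ephx1 gene, whose outer start is at 181020904, and the bases before that start were not searched. Of the 10 genes, 7 were matched in the RefSeq table. Of the other matched NRF2 targets, Gclm held TGACGGTGC on the opposite strand, with its base farthest from the start lying 134 bases upstream. Of 3 Txnrd1 windows, 1 held TGACAAAGC, while the Srxn1 window held no match to TGACNNNGC. The Gclm window also held 2 matches to the metal response element letters and the Srxn1 window 1.

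Hmox1 (ENSMUSG00000005413, chr8:75093621-75100589, plus strand) encodes heme oxygenase 1, which breaks heme down to biliverdin, iron and carbon monoxide and is abundant in Kupffer cells, the macrophages of the liver. The lowest, median and highest levels of Hmox1 were 26.0, 27.7 and 38.2 FPKM in Rspo2-AAV livers, against 28.9, 40.3 and 59.6 FPKM in Gfp-AAV livers. Apart from Rspo2-AAV 1 at 38.2 FPKM, the Rspo2-AAV libraries were all below the lowest Gfp-AAV library. The mean was 29.2 ± 4.50 FPKM in Rspo2-AAV and 42.0 ± 11.7 FPKM in Gfp-AAV livers (SD, n = 6 each), and the difference did not pass the test (log2 change -0.48 ± 0.17 SE, 95% interval -0.86 to -0.11 before adjustment, limma adjusted p = 0.125).

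Macrophage markers and stellate cell markers were lower beside it. Of 11 tested macrophage and Kupffer cell markers, 4 were called lower and 0 higher in Rspo2-AAV livers, with a median log2 change of -0.67. Of all tested genes, 2.65% were called lower. Their sum over 12 markers was 546 to 1022 FPKM in Rspo2-AAV and 762 to 1649 FPKM in Gfp-AAV livers, and none was at 0 in every library. Of 8 stellate and fibroblast markers, 3 were called lower and 0 higher, with a median log2 change of -0.71. Their sum was 23.8 to 42.5 FPKM in Rspo2-AAV and 51.7 to 70.5 FPKM in Gfp-AAV livers, with none at 0 in every library. Other cell types did not share this direction. Of 6 tested endothelial markers 0 were called, with a median log2 change of 0.00. Of 4 tested cholangiocyte (bile duct cell) markers 0 were called, with a median of 0.32. The genes whose levels followed Hmox1 most closely over the 12 libraries, after group means were removed, were Slc11a1 (r = 0.95), Ptpn1 (r = 0.94) and Plek (r = 0.93), the best of 10100 candidates and given as a description. Slc11a1 and Plek are expressed mainly by macrophages and other leukocytes. Such likeness was not particular to Hmox1. The 3 closest genes of Mt2 were Grk2 (r = 0.98), Fbxo31 (r = 0.97) and the Kupffer cell marker Clec4f (r = 0.95). Mt2 had only 1 to 104 reads per library and was highest in the 3 Xist libraries, on which these correlations may rest. Grk2 was at 15.0 FPKM or more in the 3 and at most 12.5 FPKM in the other 9. Fbxo31 was at 19.4 FPKM or more and at most 17.4 FPKM, while the ranges of Clec4f overlapped. In bulk liver, fewer cells of a type and less RNA per cell cannot be told apart, and the part of macrophages or stellate cells in the Hmox1 values was not tested.

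Gclc (ENSMUSG00000032350, chr9:77754535-77794485, plus strand) encodes the catalytic subunit of glutamate-cysteine ligase, the rate-limiting enzyme of glutathione synthesis. Its lowest, median and highest levels were 33.7, 40.5 and 48.2 FPKM in Rspo2-AAV livers, against 36.1, 69.8 and 120.0 FPKM in Gfp-AAV livers. All 6 Rspo2-AAV libraries were below the Gfp-AAV median, and the Gfp-AAV libraries were far more spread, with 36.1 FPKM in Gfp-AAV 3 and 75.9 to 120.0 FPKM in Gfp-AAV 4, 5 and 6. The mean was 40.6 ± 5.36 FPKM in Rspo2-AAV and 74.6 ± 30.0 FPKM in Gfp-AAV livers (SD, n = 6 each), a difference that did not pass the test (log2 change -0.78 ± 0.24 SE, limma adjusted p = 0.0815).

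The Gclc call depended on the libraries and the model. Without Gfp-AAV 3 the log2 change was -0.96 and Gclc passed (limma adjusted p = 0.0106), as it did without the 3 Xist libraries (log2 change -0.87, limma adjusted p = 0.0246). Without the Xist libraries the ranges were separate, at 37.9 to 48.2 FPKM in Rspo2-AAV and 55.8 to 120.0 FPKM in Gfp-AAV livers, as they then were for 15.2% of all tested genes. Among libraries numbered 4 to 7 the mean was 43.3 FPKM in 4 Rspo2-AAV livers and 97.4 FPKM in 3 Gfp-AAV livers (log2 change -1.14 ± 0.16 SE, limma adjusted p = 0.00577). In that comparison 13.3% of all tested genes were called. Among libraries numbered 1 to 3 the mean was 35.3 FPKM in 2 Rspo2-AAV and 51.8 FPKM in 3 Gfp-AAV livers (log2 change -0.51 ± 0.30 SE, limma adjusted p = 0.757). No gene of 13447 (0.0%) was called by limma in that smaller comparison, where 955, or 7.1%, had an unadjusted p under 0.05. With the number set as a term in a model of all 12 libraries, the log2 change of Gclc was -0.88 ± 0.18 SE (limma adjusted p = 0.0145), and 6.48% of all tested genes were called. The difference of the vector effect between the number sets did not itself pass (log2 difference -0.63 ± 0.32 SE, limma adjusted p = 0.487).

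Gclm (ENSMUSG00000028124, chr3:122245557-122270732, plus strand) encodes the modifier subunit of the same ligase, which improves the enzyme's affinity for its substrates. For Gclm the lowest, median and highest levels were 27.5, 30.4 and 35.5 FPKM in Rspo2-AAV livers, against 29.7, 35.9 and 47.5 FPKM in Gfp-AAV livers. The ranges overlapped over most of the Rspo2-AAV values, and the difference did not pass (log2 change -0.25 ± 0.13 SE, limma adjusted p = 0.271). Like Gclc, Gclm was highest of all 12 libraries in Gfp-AAV 4, 5 and 6, and among numbers 4 to 7 it was called lower in Rspo2-AAV livers (log2 change -0.45 ± 0.12 SE, limma adjusted p = 0.0436). The ratio of Gclc to Gclm FPKM was 0.950 to 1.45 in Rspo2-AAV livers and 1.22 to 2.53 in Gfp-AAV livers (a description, not tested). Exons of Gm17494 and Gm6061 cover 296 and 244 of the 6291 exonic bases of Gclm, and those genes were at no more than 0.108 FPKM.

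Gsr (ENSMUSG00000031584, chr8:33652523-33698163, plus strand) encodes glutathione reductase, which returns oxidised glutathione to its reduced form. It was the least variable of the 10 genes. Its lowest, median and highest levels were 26.4, 29.4 and 30.8 FPKM in Rspo2-AAV livers, against 27.3, 32.7 and 40.4 FPKM in Gfp-AAV livers. Only 1 Rspo2-AAV library lay below the Gfp-AAV range, and the difference did not pass (log2 change -0.20 ± 0.10 SE, 95% interval -0.42 to 0.03, limma adjusted p = 0.305).

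**Figure D2:**
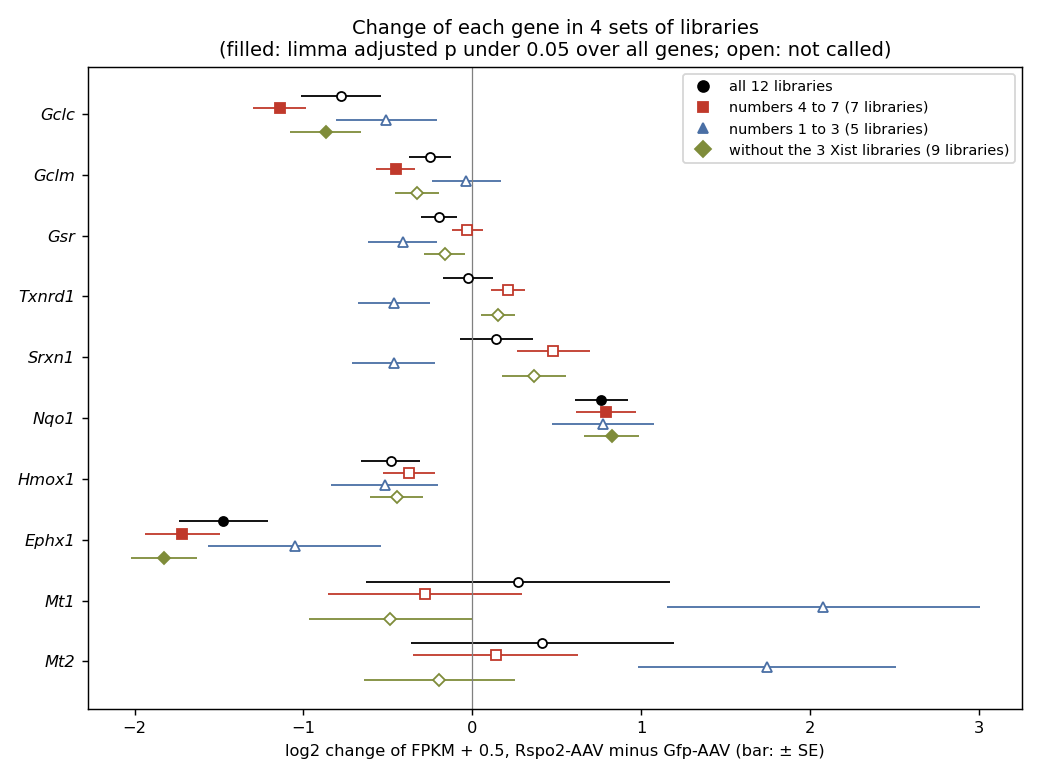
Log2 change of FPKM + 0.5, Rspo2-AAV minus Gfp-AAV, for the 10 genes in 4 sets of libraries: all 12, numbers 4 to 7, numbers 1 to 3, and all without the 3 Xist libraries. Points are limma estimates, bars are ± 1 SE, and filled points have an adjusted p under 0.05. Ephx1 and Nqo1 keep their direction in every set, Gclc is filled in 2 sets, and Txnrd1, Srxn1, Mt1 and Mt2 lie on both sides of 0.

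Txnrd1 (ENSMUSG00000020250, chr10:82833951-82897712, plus strand) encodes cytosolic thioredoxin reductase, which keeps thioredoxin reduced with electrons from NADPH. Its lowest, median and highest levels were 16.8, 27.5 and 32.0 FPKM in Rspo2-AAV livers, against 24.1, 25.9 and 29.1 FPKM in Gfp-AAV livers. The Rspo2-AAV libraries fell on both sides of the Gfp-AAV range, with 3 above it and 2 below it. The group means were nearly equal, at 26.2 ± 5.95 FPKM in Rspo2-AAV and 26.1 ± 1.87 FPKM in Gfp-AAV livers (SD, n = 6 each; log2 change -0.03 ± 0.15 SE, 95% interval -0.35 to 0.29, limma adjusted p = 0.941).

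Srxn1 (ENSMUSG00000032802, chr2:152105516-152111376, plus strand) encodes sulfiredoxin, which repairs over-oxidised peroxiredoxins. For Srxn1 the lowest, median and highest levels were 14.9, 25.0 and 38.5 FPKM in Rspo2-AAV livers, against 18.0, 22.9 and 27.0 FPKM in Gfp-AAV livers. As with Txnrd1, the 3 highest of all 12 libraries were Rspo2-AAV 5, 6 and 7. The difference between groups did not pass (log2 change 0.14 ± 0.22 SE, 95% interval -0.33 to 0.61, limma adjusted p = 0.760).

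For these 2 genes the direction differed between the number sets. Among numbers 4 to 7, Txnrd1 averaged 29.5 FPKM in Rspo2-AAV and 25.3 FPKM in Gfp-AAV livers, and among numbers 1 to 3 it averaged 19.5 FPKM in Rspo2-AAV and 26.9 FPKM in Gfp-AAV livers. Srxn1 averaged 30.4 FPKM in Rspo2-AAV and 21.3 FPKM in Gfp-AAV livers among numbers 4 to 7, and 16.6 FPKM in Rspo2-AAV and 23.3 FPKM in Gfp-AAV livers among numbers 1 to 3. None of these 4 comparisons passed the test. The log2 difference of the vector effect, numbers 4 to 7 minus numbers 1 to 3, was 0.68 ± 0.21 SE for Txnrd1 (limma adjusted p = 0.279) and 0.95 ± 0.34 SE for Srxn1 (limma adjusted p = 0.335). Their unadjusted limma p-values for that difference were 0.00798 and 0.0179, in a comparison where 11.5% of all tested genes had an unadjusted p under 0.05 and 0.245% were called. The 2 Rspo2-AAV libraries numbered 1 to 3 are also the 2 with Xist, so number and Xist cannot be told apart within the Rspo2-AAV group. The genes that followed Txnrd1 most closely over the 12 libraries with group means removed were Tnfaip1 (r = 0.97), Odc1 (r = 0.95) and Tmem175 (r = 0.95), and for Srxn1 they were Plk2 (r = 0.95), Pxdc1 (r = 0.95) and Thoc5 (r = 0.94). Odc1 encodes ornithine decarboxylase, the first enzyme of polyamine synthesis, and Plk2 a stress-responsive kinase.

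Mt1 (ENSMUSG00000031765, chr8:94179082-94180327, plus strand) had the highest mean of the 10 genes over all 12 libraries and was also the most variable. Mt1 was at 606.8, 527.5, 79.9, 66.6, 26.5 and 20.1 FPKM in Rspo2-AAV 1, 2, 4, 5, 6 and 7, against 51.0, 100.9, 460.6, 97.2, 31.6 and 40.8 FPKM in Gfp-AAV 1 to 6. The 3 high libraries, Rspo2-AAV 1, Rspo2-AAV 2 and Gfp-AAV 3, were the 3 with Xist, and the other 9 were at 20.1 to 100.9 FPKM whichever vector they had received. Between the vectors Mt1 did not pass the test, and the interval was wide (log2 change 0.27 ± 0.90 SE, 95% interval -1.68 to 2.22, limma adjusted p = 0.901). Without the 3 Xist libraries the log2 change was -0.49 ± 0.48 SE (limma adjusted p = 0.569), with 20.1 to 79.9 FPKM in Rspo2-AAV and 31.6 to 100.9 FPKM in Gfp-AAV livers.

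Mt2 (ENSMUSG00000031762, chr8:94172664-94173568, plus strand) lies 5513 bases before Mt1 on the same strand. Mt2 was at 7.01, 9.52, 1.96, 0.447, 0.117 and 0.114 FPKM in Rspo2-AAV 1, 2, 4, 5, 6 and 7, against 0.641, 1.67, 6.52, 0.528, 0.479 and 0.177 FPKM in Gfp-AAV 1 to 6. The same 3 libraries were highest, and the groups overlapped over nearly their whole ranges (log2 change 0.41 ± 0.78 SE, 95% interval -1.27 to 2.10, limma adjusted p = 0.811). These levels rest on 1 to 104 reads per library, against 375 to 19083 reads for Mt1. The ratio of Mt1 to Mt2 FPKM was 40.7 to 227.0 in Rspo2-AAV and 60.5 to 230.1 in Gfp-AAV livers. Of the 588 exonic bases of Mt2, 432 are shared with the antisense gene Gm45774, which was at no more than 0.635 FPKM. Whether counting used strand is not given in the sources used here, so reads of Mt2 and Gm45774 cannot be told apart. If strand was not used, reads on the shared bases may have been counted for either gene or for neither. The Mt2 level and the ratio of Mt1 to Mt2 may therefore be too low or too high, which was not tested. Mt1 was counted as 1 exon block of 1246 bases.

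**Figure D3:**
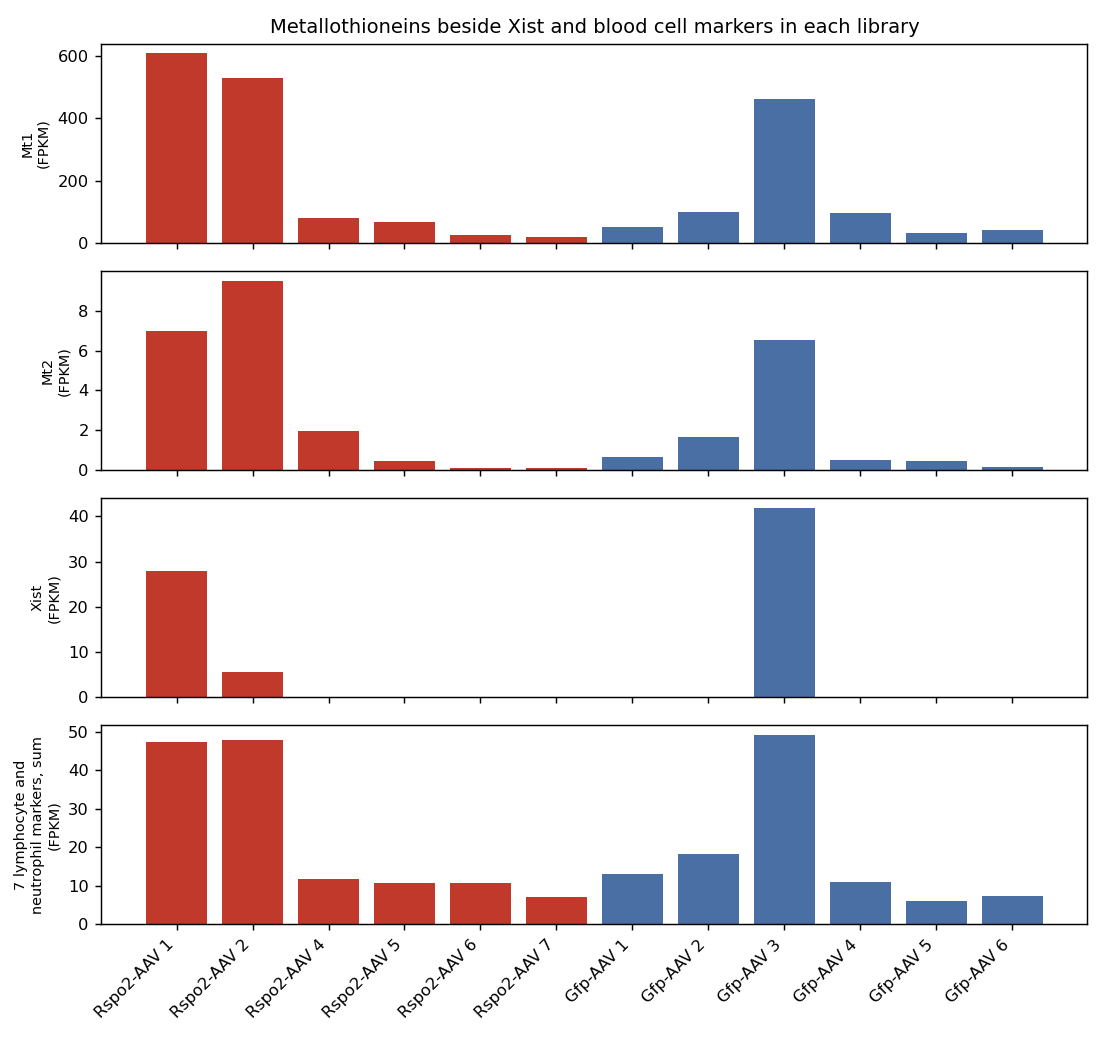
Levels of Mt1, Mt2 and Xist and the sum of 7 lymphocyte and neutrophil markers, in FPKM on linear axes, with 1 bar per library, Rspo2-AAV in red on the left and Gfp-AAV in blue on the right. Rspo2-AAV 1, Rspo2-AAV 2 and Gfp-AAV 3 hold the 3 highest values in all 4 panels, at 460.6 to 606.8 FPKM for Mt1.

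Being highest in those 3 libraries was shared by 293 of 13447 tested genes, or 2.18%, and 20 genes, or 0.149%, were over 4 times the highest of the other 9, Mt1 among them. Among the 258 protein-coding genes above in all 3, Mt1 had the 16th and Mt2 the 18th highest ratio of the lowest of the 3 to the highest of the 9. Lymphocyte and neutrophil markers summed to 47.2 to 49.2 FPKM in the 3 and to 6.05 to 18.1 FPKM in the 9 over 7 markers, none at 0 in every library. Nearly all of that sum was the neutrophil genes S100a8 and S100a9, at 40.9 to 46.8 FPKM in the 3 and 3.95 to 15.3 FPKM in the 9. The other 5 markers summed to 2.42 to 6.31 FPKM in the 3 and 1.42 to 6.00 FPKM in the 9, so their ranges overlapped. The acute-phase gene Saa1 was at 47.5 to 76.2 FPKM in the 3 and 54.1 to 395.7 FPKM in the 9. Saa2 was at 18.5 to 31.1 FPKM in the 3 and 25.1 to 165.9 FPKM in the 9, Saa3 at 6.68 to 27.8 FPKM in the 3 and 6.65 to 33.3 FPKM in the 9, and Lcn2 at 36.3 to 72.4 FPKM in the 3 and 12.1 to 81.3 FPKM in the 9. The ranges of all 4 of these genes, chosen with earlier results known, overlapped. The part of sex, of neutrophils or of inflammation in the Mt1 and Mt2 levels was not tested. With the vector in the model, the log2 difference of numbers 4 to 7 minus numbers 1 to 3 was -2.52 ± 0.63 SE for Mt1 (limma adjusted p = 0.0990) and -2.31 ± 0.50 SE for Mt2 (limma adjusted p = 0.0730), neither past the threshold, which 0.357% of all tested genes passed. All 3 Xist libraries are numbered 1 to 3, so this difference includes them. Mt1 was at 51.0, 100.9 and 460.6 FPKM in Gfp-AAV 1, 2 and 3, and at 31.6 to 97.2 FPKM in Gfp-AAV 4 to 6. Mt2 was at 0.641, 1.67 and 6.52 FPKM in Gfp-AAV 1, 2 and 3, and at 0.177 to 0.528 FPKM in Gfp-AAV 4 to 6.

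The promoter windows of Mt1 and Mt2 are printed because the 2 genes were high in the same libraries. Both are on GRCm38.p6 from RefSeq, 250 bases before the start, with matches to either motif in capitals.

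Mt1, chr8:94178839-94179088, plus strand: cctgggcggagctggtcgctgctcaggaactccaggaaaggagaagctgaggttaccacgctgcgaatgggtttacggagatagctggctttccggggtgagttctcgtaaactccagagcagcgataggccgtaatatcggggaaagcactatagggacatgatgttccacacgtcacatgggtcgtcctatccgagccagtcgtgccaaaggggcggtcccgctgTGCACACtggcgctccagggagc

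Mt2, chr8:94172368-94172617, plus strand: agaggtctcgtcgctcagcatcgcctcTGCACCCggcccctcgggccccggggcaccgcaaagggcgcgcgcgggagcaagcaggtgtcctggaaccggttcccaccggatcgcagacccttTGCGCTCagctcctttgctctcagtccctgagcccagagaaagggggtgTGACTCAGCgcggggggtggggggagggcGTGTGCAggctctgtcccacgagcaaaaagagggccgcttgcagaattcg

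The Mt2 window held TGACTCAGC, which fits the antioxidant response element letters, with its first base 79 bases upstream of the start. It also held 3 matches to the metal response element letters, each placed by its base farthest from the start. They were TGCACCC at 223 and TGCGCTC at 128 bases upstream on the gene's strand and TGCACAC at 50 bases upstream on the other. The Mt1 window held 1 match, TGCACAC at 23 bases upstream. None of these matches overlapped another. Further matches may lie outside the windows, also past the starts used here, so these counts do not rank the genes by metal response elements.

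The regulators of NRF2 did not pass the test. Of 10 tested genes of that list, 0 were called higher and 0 lower by limma, 1 had an unadjusted p under 0.05, and the median log2 change was 0.09. Limma-voom on the recovered reads also called 0 of the 10. Over all tested genes, 21.5% had an unadjusted p under 0.05 and limma-voom called 4.9%. Nfe2l2 averaged 24.6 ± 3.96 FPKM in Rspo2-AAV and 23.5 ± 4.03 FPKM in Gfp-AAV livers, and Keap1 14.5 ± 0.961 FPKM in Rspo2-AAV and 13.5 ± 0.876 FPKM in Gfp-AAV livers (SD, n = 6 each). Bach1, a repressor that competes with NRF2 at Hmox1, averaged 4.87 ± 0.819 FPKM in Rspo2-AAV and 7.53 ± 1.89 FPKM in Gfp-AAV livers and was just outside the threshold (log2 change -0.56 ± 0.16 SE, limma adjusted p = 0.0545).

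Among 19 tested other NRF2 target genes, 1 was higher and 1 lower in Rspo2-AAV livers, with a median log2 change of -0.23 and a positive change in 3. Osgin1, an oxidative-stress-induced growth inhibitor, was lower with separate ranges, at 24.1 to 45.1 FPKM in Rspo2-AAV and 47.7 to 109.0 FPKM in Gfp-AAV livers (log2 change -1.15, limma adjusted p = 0.0139). Blvrb, a biliverdin and flavin reductase, was higher and close to the threshold (log2 change 0.64, limma adjusted p = 0.0495), and it passed in 1 of the 12 fits without 1 library. Red cells also hold much Blvrb, and 4 of 5 erythroid markers were called higher, their sum being 229.2 to 1360 FPKM in Rspo2-AAV and 97.4 to 353.8 FPKM in Gfp-AAV livers. The fifth marker, Alas2, the heme synthesis enzyme of red cell precursors, averaged 20.8 FPKM in Rspo2-AAV and 49.5 FPKM in Gfp-AAV livers (log2 change -0.99, limma adjusted p = 0.294). None of the 5 was at 0 in every library, and their part in the Blvrb values was not tested.

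**Figure D4:**
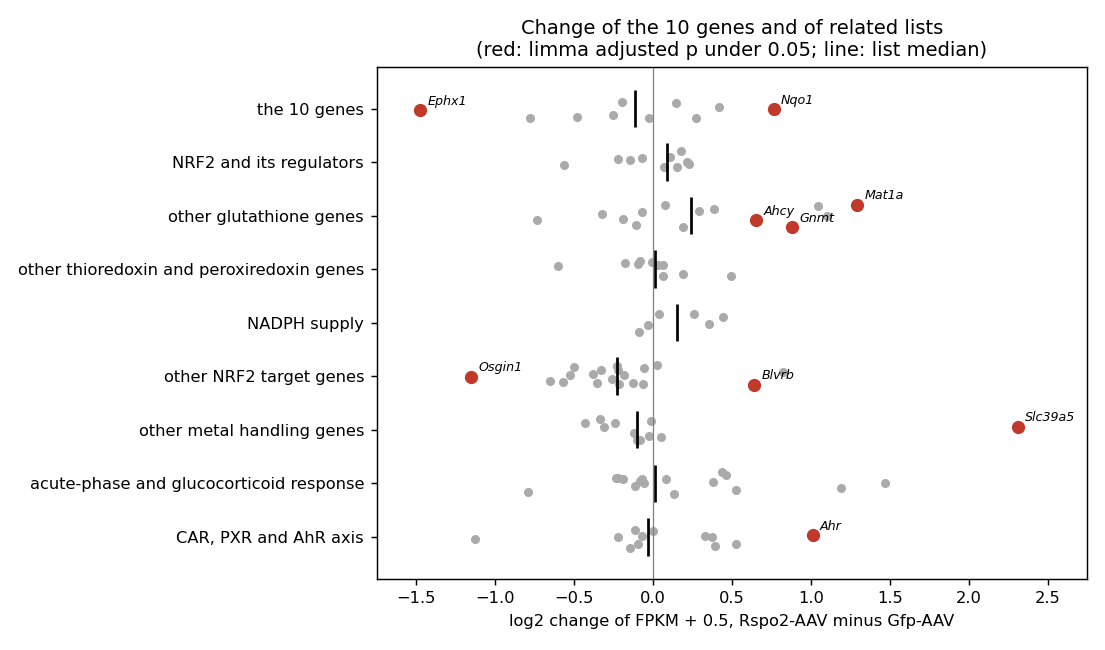
Log2 change of FPKM + 0.5, Rspo2-AAV minus Gfp-AAV, for the 10 genes and 8 related lists. Each point is 1 tested gene, red points with names have a limma adjusted p under 0.05, and the vertical line is the median of the list. Medians lie between -0.23 for other NRF2 target genes and 0.24 for other glutathione genes.

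Of 14 tested other glutathione genes, 3 were higher and 0 lower, with a median log2 change of 0.24. The 3 were Mat1a (log2 change 1.29), Gnmt (0.88) and Ahcy (0.65), enzymes that make S-adenosylmethionine, use it as a methyl donor and hydrolyse the S-adenosylhomocysteine left over, and not enzymes of glutathione itself. Of the 12 fits without 1 library, Mat1a passed in 3, Gnmt in 6 and Ahcy in 1. Neither the 10 other thioredoxin and peroxiredoxin genes nor the 6 genes of NADPH supply held a call by limma or limma-voom. At an unadjusted p under 0.05 there were 2 and 0 genes in those lists, and their median log2 changes were 0.01 and 0.15.

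Of 11 tested other metal handling genes, 1 was higher and 0 lower, with a median log2 change of -0.10. That gene was Slc39a5, a zinc importer of liver and pancreas, at 2.28 to 20.9 FPKM in Rspo2-AAV and 0.488 to 1.18 FPKM in Gfp-AAV livers (log2 change 2.31, limma adjusted p = 0.00720). Its highest value was in Rspo2-AAV 4, which had the most acinar reads, while Rspo2-AAV 1, with 3.99 FPKM of summed acinar markers, was at 7.69 FPKM. The part of acinar transcripts in the Slc39a5 values was not tested. Mtf1, the metal-sensing activator of metallothioneins, had a log2 change of -0.10 (limma adjusted p = 0.656). Of 16 acute-phase and glucocorticoid response genes, 0 were called by limma or limma-voom and 3 had an unadjusted p under 0.05, with a median log2 change of 0.01. Of 12 tested genes of the CAR, PXR and AhR axis, which also controls Ephx1 and Nqo1, 1 was higher and 0 lower. That gene was Ahr, the aryl hydrocarbon receptor, an activator of Nqo1. Ahr was at 11.2 to 22.4 FPKM in Rspo2-AAV and 4.26 to 13.3 FPKM in Gfp-AAV livers (log2 change 1.01, limma adjusted p = 0.0480). It passed in 4 of the 12 fits without 1 library. The rest of the list was not called, including Cyp1a2 (log2 change 0.52, limma adjusted p = 0.243) and Tiparp (log2 change -0.07, limma adjusted p = 0.819). The part of Ahr in the Nqo1 values was not tested.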

How the data were processed

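Poly-A RNA of liver was sequenced in 12 libraries, and the authors deposited FPKM per gene with symbol, position and length. Per the submitters' processing notes, the tools included featureCounts 1.5.0-p3, DESeq2 1.20.0 and HISAT2 2.0.5 and the build GRCm38 (mm10), with no role or order. Groups were taken from the sample titles. All positive deposited FPKM values gave whole reads within 0.01 reads (100% in each library). Their steps showed that libraries had been scaled by median-of-ratios size factors.

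Groups were compared with limma 3.58.1 under R 4.3.3 (lmFit, eBayes with trend) on log2(FPKM + 0.5) values of 13447 genes whose mean reached 0.5 FPKM, all 10 genes included, with Benjamini-Hochberg adjustment and calls at an adjusted p under 0.05. It was tested on simulated data. Alternatives covered the pseudocount, filter, scaling, a count-based fit on recovered reads, the replicate block, left-out libraries and library sets. Gene levels rest on PCR reads without molecular identifiers.

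Named genes were the 10, members of related lists past the threshold and a few fixed regulators. The 3 closest genes by correlation within groups were named for Hmox1, Txnrd1, Srxn1 and Mt2. The 10 genes, lists and library sets were chosen with earlier results of these data known. Promoter sequences came from RefSeq (GRCm38.p6), and Gclc, Gsr and Hmox1 had no entry used here. Overlaps were read from GENCODE M21, whose coordinates for the 10 genes were identical to the deposited ones.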

Additional observations from a re-analysis of the deposited data

Results flagged for a closer look

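In 20 groups of 6 values, the 10 genes in 2 groups each, 3 held a library far from the other 5 by Dixon's rule. The rule was applied to FPKM without logarithms. Chance meets it in about 1 group of 20 only where values are normally distributed and groups independent. Skewed values can meet it more often, and the Mt1 and Mt2 values below come from the same library, so the count cannot be set against that rate. Hmox1 was at 38.2 FPKM in Rspo2-AAV 1, against 26.0 to 28.6 FPKM in the other Rspo2-AAV livers. Mt1 was at 460.6 FPKM in Gfp-AAV 3, against 31.6 to 100.9 FPKM in the other Gfp-AAV livers. Mt2 was at 6.518 FPKM in Gfp-AAV 3, against 0.177 to 1.67 FPKM in the other Gfp-AAV livers. Both libraries carried Xist.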

How the results depend on the processing

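Over 24 other settings of the analysis, Ephx1 passed in 23 and Nqo1 in 22, Gclc in 5 and Gclm in 1, and the other 6 genes in none. Ephx1 (log2 change -1.05) and Nqo1 (0.77) did not pass among numbers 1 to 3, where no gene did, and Nqo1 (0.81) did not under TPM scaling. No gene changed sign while called, but the uncalled changes of Mt1, Mt2, Txnrd1 and Srxn1 took either sign. Of all genes, 343 were higher and 356 lower. The counts were 195 and 216 with no filter on low values, 197 and 183 under TPM scaling, 853 and 931 among numbers 4 to 7, 0 and 0 among numbers 1 to 3, 807 and 908 without the Xist libraries, and 117 and 120 without Rspo2-AAV 4 and 5. Leaving out 1 library gave 162 to 421 higher and 170 to 492 lower, and omitting Gfp-AAV 2, 4, 5 or 6 or Rspo2-AAV 5, 6 or 7 moved a count by over 1.5 times. Deviations of same-numbered libraries from their group means were weakly correlated (-0.25 to 0.16 over 5 shared numbers). The labels do not say what a number marks, and weak correlations cannot decide whether the numbers pair the libraries. The replicate block gave 145 higher and 152 lower, against 294 and 342 in the same 10 libraries without it, an alternative chosen after seeing the data. Under the block Gclc passed (log2 change -0.95, limma adjusted p = 0.0320), as it did in those 10 libraries without it (limma adjusted p = 0.0257). The difference of the vector effect between number sets was called higher for 9 genes and lower for 24. It was called for 1 and 2 with a pseudocount of 0.1 and for 0 and 1 under TPM scaling. Leaving out 1 library gave 0 to 64 higher and 0 to 87 lower, where without Rspo2-AAV 1 or 2 the lone library is assumed to vary like the others. The cause of these changes was not tested. Low counts limit Mt2, at 1 to 104 reads, and Nqo1, at 67 to 340 reads. The exonic bases that Mt2 shares with Gm45774 may limit Mt2 as well.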
